A study of Mus musculus with 14 samples.

Results

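F-box proteins are the parts of SCF ubiquitin ligases that choose the substrate. In such a ligase the scaffold Cul1 holds the RING protein Rbx1 at one end and the adaptor Skp1 at the other, and Skp1 binds the F-box, so that exchanging the F-box protein changes what is marked for degradation. The names tell what lies beside the F-box: WD40 repeats in Fbxw, leucine-rich repeats in Fbxl and other or no known domains in Fbxo proteins. Oocytes and early embryos depend on such degradation, because they carry proteins and messages laid down during oocyte growth that are cleared as the embryonic genome becomes active. In the mouse a family of closely related Fbxw genes lies in tandem, and 1 of them, Fbxw15, is known as a gene of growing oocytes.

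The F-box genes were taken by symbol, as every gene of the table named Fbxo, Fbxl or Fbxw with a number, 1 such gene aside. This gave 75 of 22491 gene symbols, of which 36 were Fbxo, 18 Fbxl and 21 Fbxw genes. The 13 genes from Fbxw13 to Fbxw28 were set against the other 62. A total of 66 reached 1 FPKM (a read count divided by the length of the transcript and by the size of the library) in at least 2 libraries and were tested, all 13 of the first set and 53 of the others.

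The study sequenced mRNA of mouse embryos made either by nuclear transfer from somatic cells (SCNT, where an oocyte stripped of its own chromosomes receives a donor nucleus) or by in vitro fertilisation (IVF), and of the cells that gave the nuclei. The 14 libraries form 7 groups of 2: SCNT 2-cell embryos that overexpress Kdm4d (25 pooled embryos each; Kdm4d removes methyl groups from lysine 9 of histone H3), SCNT 2-cell embryos with a mutant Kdm4d (25 each), SCNT 2-cell embryos (40 each), IVF 2-cell embryos (25 each), SCNT 1-cell embryos (36 each), donor cumulus cells (about 1000 each) and IVF 1-cell embryos (32 and 31). The strain labels are (C57BL/6J x CAST/EiJ) F1 for donor cells, B6D2F1 for the enucleated oocytes, and C57BL/6J oocyte with CAST/EiJ sperm for IVF embryos, so nuclear transfer and the strain of the oocyte cannot be told apart. Against the strain label, BDF1 is the strain that the protocols give for the females the cumulus cells came from. Neither the mutation nor the way of overexpression is given in the sources used here. Nothing says that the replicates were separate experiments, so p-values measure only the spread between these libraries, which may be technical. In the main fit each gene had 1 variance shared by all 7 groups. A p-value there does not measure the spread of the compared groups alone.

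Kdm4d itself stood at 8879 and 2255 FPKM in the Kdm4d libraries and at 723 and 283 FPKM in the mutant libraries, and below 1 FPKM in the other 10. The summed FPKM of a library were lowest in SCNT 2-cell embryos (187340 and 183001) and highest in IVF 1-cell embryos (344641 and 345452), and sequencing depth, estimated from the steps of low values, spanned 0.416 to 1 times that of the first IVF 1-cell library. Cumulus and oocyte markers met the labels: the 16 cumulus and granulosa genes summed to 26837 and 20443 FPKM in donor cells and to 1.71 and 2.20 FPKM in IVF 1-cell embryos, while the 15 oocyte genes in the table summed to 10.4 and 11.1 FPKM in donor cells and 12912 and 12564 FPKM in IVF 1-cell embryos. The 4 immune genes summed to 30.7 and 8.95 FPKM in donor cells and 0.997 and 0.392 FPKM in IVF 1-cell embryos. For the 4 oviduct epithelium genes the sums were 43.4 and 27.4 FPKM in donor cells and 2.05 and 1.47 FPKM in IVF 1-cell embryos. The part of such cells in the donor samples was not tested. Replicates differed most in the mutant Kdm4d group (robust SD 0.371 log2 units over 6255 genes) and least in the IVF 1-cell group (0.092).

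Of the 13 genes from Fbxw13 to Fbxw28, 12 lie side by side on chromosome 9 in genome build mm9, over 607 kb (chr9:109041968-109648603), in the order Fbxw21, Fbxw13, Fbxw20, Fbxw14, Fbxw28, Fbxw22, Fbxw16, Fbxw19, Fbxw15, Fbxw24, Fbxw18 and Fbxw26. The 13th, Fbxw17, lies on chromosome 13 (chr13:50513246-50529138). RefSeq promoters (250 bases before to 50 after the start, GRCm38.p6) were matched for 10 of the 12 and for Fbxw17. The promoters of Fbxw24, the most abundant of the family in embryos, of Fbxw28, the second in 1-cell embryos, and of Fbxw16 are shown because these neighbours share 84.3% to 90.8% of their letters and fell together below. That of Fbxw17 is shown beside them as the unlike one. All run 5′ to 3′ on the gene's own strand, with capitals marking the motif CANNTG (the E-box).
Fbxw24: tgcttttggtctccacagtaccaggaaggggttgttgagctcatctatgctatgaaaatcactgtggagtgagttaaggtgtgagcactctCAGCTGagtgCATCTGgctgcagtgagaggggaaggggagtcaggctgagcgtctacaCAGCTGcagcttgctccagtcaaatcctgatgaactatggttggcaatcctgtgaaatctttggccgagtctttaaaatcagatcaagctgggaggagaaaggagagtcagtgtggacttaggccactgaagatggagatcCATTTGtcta
Fbxw28: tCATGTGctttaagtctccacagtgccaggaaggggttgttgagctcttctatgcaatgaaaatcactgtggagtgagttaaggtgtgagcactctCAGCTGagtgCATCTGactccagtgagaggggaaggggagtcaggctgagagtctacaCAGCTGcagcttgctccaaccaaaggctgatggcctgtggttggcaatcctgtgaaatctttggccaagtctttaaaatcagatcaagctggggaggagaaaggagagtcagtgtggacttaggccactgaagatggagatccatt
Fbxw16: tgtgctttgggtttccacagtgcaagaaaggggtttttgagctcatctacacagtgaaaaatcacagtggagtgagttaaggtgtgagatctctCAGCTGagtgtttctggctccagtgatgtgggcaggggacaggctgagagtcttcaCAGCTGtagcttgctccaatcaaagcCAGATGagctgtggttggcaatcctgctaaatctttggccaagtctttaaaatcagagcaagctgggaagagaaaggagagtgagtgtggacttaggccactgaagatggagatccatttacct
Fbxw17: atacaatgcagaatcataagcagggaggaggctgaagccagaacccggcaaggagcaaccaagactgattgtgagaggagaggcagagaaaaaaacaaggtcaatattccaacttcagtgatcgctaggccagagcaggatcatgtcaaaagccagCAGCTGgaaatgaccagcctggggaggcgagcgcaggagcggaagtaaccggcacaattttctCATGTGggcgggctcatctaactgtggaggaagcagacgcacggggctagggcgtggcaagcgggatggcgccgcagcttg
The first 3 are on the minus strand at chr9:109626010-109626309, chr9:109339610-109339909 and chr9:109449091-109449390, and the Fbxw17 promoter is on the plus strand at chr13:50417614-50417913.

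Aligned in pairs, the 10 promoters of chromosome 9 had 64.2% to 97.0% identical bases (median 84.3%, 45 pairs), and the transcripts of the 12 genes 66.2% to 88.7% (median 80.6%, 66 pairs). Fbxw17 had 23.0% to 31.9% identity with those promoters and 38.4% to 44.2% with those transcripts. On both strands, CANNTG was in 10 of the 10 promoters of chromosome 9 (72.1% of 27025 mouse promoters of the same length), TATAAA in 0 (14.2%), the homeobox motif TAATTG in 0 (8.2%) and TAATCC in 1, that of Fbxw21 (7.2%). The form CAGCTG of the E-box, picked after these promoters had been read, was in all 10 and also in the Fbxw17 promoter, against 16.1% of all promoters. In 9 of the 10 it stood at least 2 times, at whatever distance, against 1.75% of all promoters. In those 9 the copies lay 56 to 58 bases apart, a spacing not counted over all promoters. Promoters copied together share letters by descent, so these 10 are not independent, and the matches are descriptions of letters only.

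Likeness between the genes also bears on their values, since reads of 50 bases were counted. Transcripts of the chromosome 9 genes shared 5.77% to 61.5% of their 50-base stretches with another gene (median 9.91%), against a median of 0% in the 61 other F-box genes with transcripts. Fbxw28 (61.5%) and Fbxw14 (58.9%) shared most, largely with each other, so their separate values are uncertain. Outside the family the share was highest in Fbxl12 (35.0%) and Fbxw8 (31.1%).

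The chromosome 9 genes were abundant in 1-cell embryos of both kinds and nearly absent from donor cells. Fbxw24 was at 1473 and 1588 FPKM in SCNT 1-cell embryos, at 0.0484 and 0.122 FPKM in donor cells and at 2058 and 2158 FPKM in IVF 1-cell embryos. In IVF 1-cell embryos it ranked 16th of all genes in both libraries, and in SCNT 1-cell embryos 20th and 19th. Fbxw28 followed with 374 and 430 FPKM in SCNT 1-cell embryos and 648 and 663 FPKM in IVF 1-cell embryos, and was listed at 0 in both donor libraries, as were Fbxw13 and Fbxw16. Fbxw14, Fbxw22 and Fbxw20 came next, with 287, 219 and 208 FPKM on average in SCNT 1-cell embryos and 495, 324 and 291 FPKM in IVF 1-cell embryos. The scarcest of the 12 was Fbxw13, at 5.97 and 6.33 FPKM in SCNT 1-cell embryos and 7.61 and 9.44 FPKM in IVF 1-cell embryos.

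**Figure D1:**
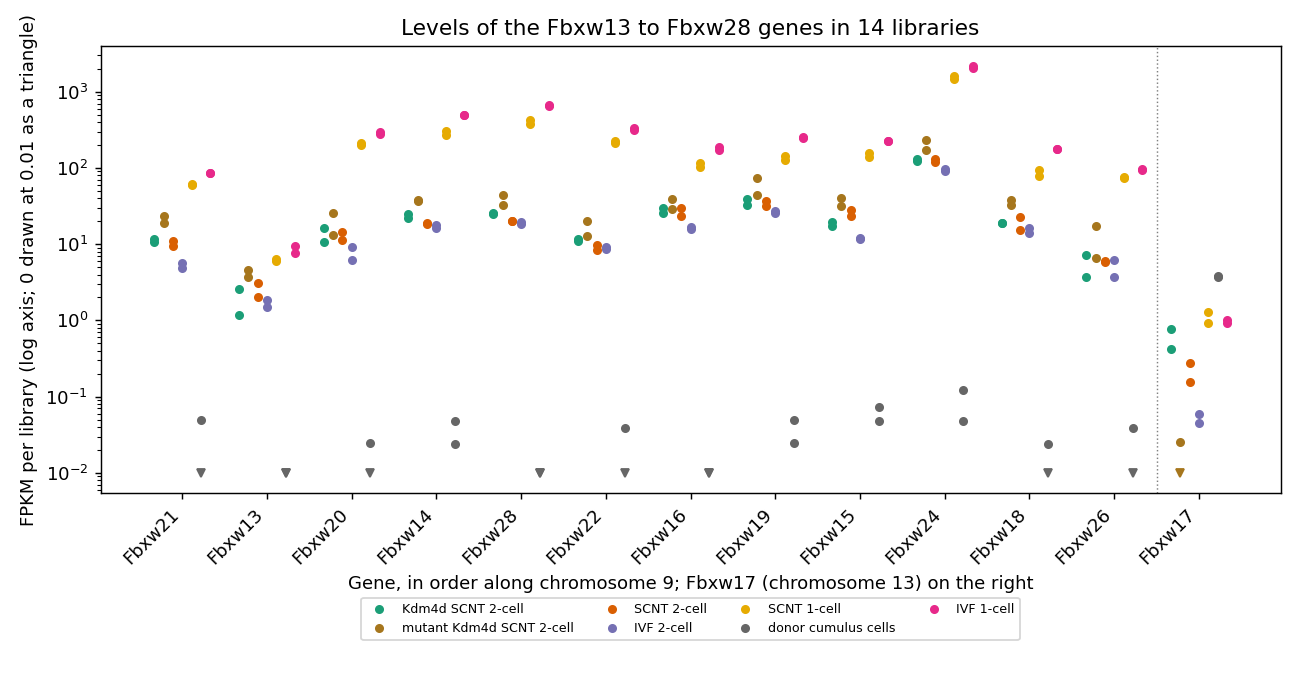
FPKM of the 13 genes from Fbxw13 to Fbxw28 in each of the 14 libraries, on a log axis, 1 point per library, with values of 0 drawn as triangles. For each of the 12 genes of chromosome 9 the 1-cell libraries lie above all 2-cell libraries and the donor libraries at or below 0.122 FPKM, while Fbxw17 is highest in donor cells.

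Summed over the 13 genes, the level was 325 and 317 FPKM in Kdm4d SCNT 2-cell embryos, 596 and 437 in mutant Kdm4d SCNT 2-cell embryos, 307 and 314 in SCNT 2-cell embryos, 222 and 236 in IVF 2-cell embryos, 3117 and 3416 in SCNT 1-cell embryos, 3.94 and 4.15 in donor cells and 4857 and 4951 in IVF 1-cell embryos. Within the embryo groups these genes thus made up very different shares of F-box messages. Their share of all F-box FPKM was 83.0% ± 0.843 in SCNT 1-cell embryos and 87.5% ± 0.142 in IVF 1-cell embryos, and 37.5% ± 1.46 in SCNT 2-cell embryos and 20.0% ± 1.15 in IVF 2-cell embryos (SD, n = 2 each). Fbxw24 alone held 37.5% to 47.2% of the sum in every embryo library, but the order below it differed by stage, with Fbxw28 second in both 1-cell groups and Fbxw19 second in all 4 groups of 2-cell embryos. In donor cells nearly all of the small sum was Fbxw17, at 3.68 and 3.79 FPKM, against 1.01 and 0.939 FPKM in IVF 1-cell embryos. The nearest genes beside the family in the table were not higher in IVF 1-cell embryos than in donor cells. Plxnb1, on one side, averaged 2.42 FPKM in donor cells and 0.330 FPKM in IVF 1-cell embryos, and Spink8, on the other, 0.0986 FPKM in donor cells and 0.0980 FPKM in IVF 1-cell embryos. Between stages Plxnb1 went from 0.330 to 0.0795 FPKM in IVF embryos and from 0.412 to 0.543 FPKM in SCNT embryos. Such low values say little about a shared stage pattern.

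**Figure D2:**
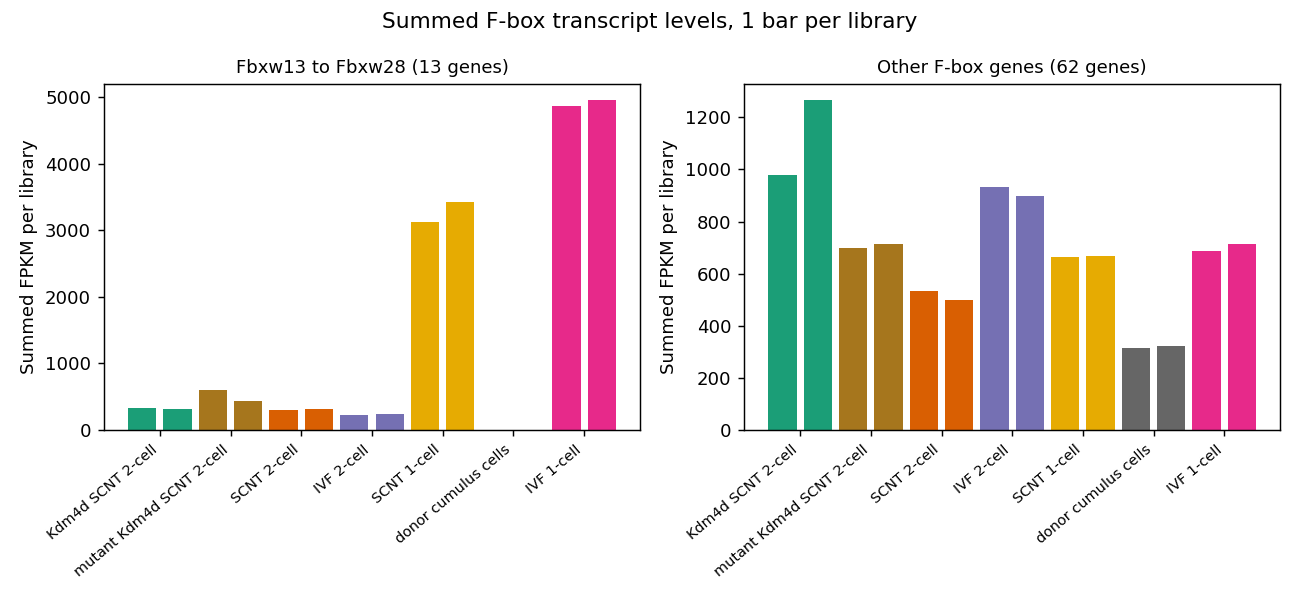
Summed FPKM of the 13 genes from Fbxw13 to Fbxw28 (left) and of the other 62 F-box genes (right), 1 bar per library, with separate axes. The left panel is dominated by the 1-cell embryos (3117 to 4951 FPKM), and the right panel is highest in Kdm4d SCNT and IVF 2-cell embryos (896 to 1266 FPKM).

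Donor cells and IVF 1-cell embryos differed in the F-box genes as they did in most genes. Of the 66 tested, 18 were higher and 36 lower in donor cells (limma on log2(FPKM + 1), Benjamini-Hochberg adjusted p under 0.05), where 77.9% of all genes tested were called, 42.4% higher and 35.5% lower. All 12 chromosome 9 genes were called lower and Fbxw17 higher. Among the other 53, 17 were higher, led by Fbxo6, which recognises N-glycosylated proteins sent for degradation from the endoplasmic reticulum, and by Fbxo32 (atrogin-1), known from muscle wasting. Fbxo6 was at 40.5 and 34.6 FPKM in donor cells and listed at 0 in both IVF 1-cell libraries. Fbxo32 was at 18.7 and 18.1 FPKM in donor cells and 0.175 and 0.135 FPKM in IVF 1-cell embryos, which is 4.07 ± 0.17 log2 units apart (SE, limma, adjusted p = 4.7e-10).
The 24 that were lower in donor cells included Fbxo5 (Emi1), the inhibitor of the anaphase-promoting complex, with 0.991 and 1.39 FPKM in donor cells and 22.8 and 37.9 FPKM in IVF 1-cell embryos. Fbxo28 averaged 6.06 ± 0.205 FPKM in donor cells and 100.2 ± 2.49 FPKM in IVF 1-cell embryos, and Fbxo8, which carries a Sec7 domain, 7.83 ± 2.07 FPKM in donor cells and 106.7 ± 7.83 FPKM in IVF 1-cell embryos (SD, n = 2 each). Fbxw7, which targets cyclin E, Myc and Notch, was at 16.4 and 18.1 FPKM in donor cells and 14 and 16.5 FPKM in IVF 1-cell embryos, and Fbxo11, which targets Bcl6, was the most abundant F-box gene outside the family in IVF 1-cell embryos (115.8 ± 3.10 FPKM, SD, n = 2) and the second in donor cells (22.0 ± 2.67). As donor cells and embryos were bulk samples, fewer cells of a type and less RNA per cell cannot be told apart.

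Between SCNT and IVF 1-cell embryos few genes were called. Of the 66 F-box genes, 2 were called higher and 5 lower (10.6%), where 2.31% of all genes were called, 1.34% higher and 0.974% lower. Of those 7, 4 belonged to the chromosome 9 family, all lower: Fbxw18 with a log2 difference of -1.05 ± 0.18 (SE, adjusted p = 0.010), Fbxw19 with -0.90 ± 0.20 (adjusted p = 0.046), Fbxw14 with -0.79 ± 0.13 (adjusted p = 0.0088) and Fbxw28 with -0.71 ± 0.15 (adjusted p = 0.035). Fbxw18 was at 78.0 and 93.6 FPKM in SCNT 1-cell embryos and 177 and 180 FPKM in IVF 1-cell embryos. The 12 genes stood at 48.1% to 78.0% of their IVF 1-cell level (median 66.3%). Their median log2 difference was -0.59, against 0.07 over all genes. None of these 4 calls stood when the values were quantile normalized, and 0 F-box genes were called in either direction when any 1 of the 4 libraries was left out (limma, with 4 to 7 higher and 11 to 13 lower at an unadjusted p under 0.05). With only these groups in the fit, 3 F-box genes were called higher and 17 lower. The 2 genes called higher were Fbxo46, at 26.1 and 23.4 FPKM in SCNT 1-cell embryos and 10.9 and 10.5 FPKM in IVF 1-cell embryos (log2 difference 1.14 ± 0.18, SE, adjusted p = 0.0066), and Fbxo48, at 1.14 and 0.866 FPKM in SCNT 1-cell embryos and 0.0385 and 0.0414 FPKM in IVF 1-cell embryos. Fbxo46 was also a gene of the donor cells, at 19.7 and 18.3 FPKM. Of the 15 cumulus and granulosa genes tested, 6 were called higher in SCNT 1-cell embryos, and their sum was 58.5 and 78.9 FPKM there and 1.71 and 2.20 FPKM in IVF 1-cell embryos. Their part in the F-box values was not tested.

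Between the 1-cell and the 2-cell stage the family fell to a small remnant. In IVF embryos all 13 genes were called lower at the 2-cell stage, as were 36 of the 66 F-box genes, with 14 higher, where 67.6% of all genes were called, 30.4% higher and 37.2% lower. Fbxw24 was at 91.4 and 97.3 FPKM in IVF 2-cell embryos and 2058 and 2158 FPKM in IVF 1-cell embryos, and the log2 difference was -4.47 ± 0.15 (SE, adjusted p = 8.8e-10). Across the 12 chromosome 9 genes, 2.65% to 19.7% of the IVF 1-cell FPKM was left at the IVF 2-cell stage (median 5.22%), and the median log2 difference was -4.10, against -0.06 over all genes. Fbxw20, Fbxw22 and Fbxw28 kept least, and Fbxw13, the scarcest, kept most. The oocyte list behaved likewise, with 14 of its 15 genes called lower in IVF 2-cell embryos, and its part in these falls was not tested.

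In SCNT embryos all 13 were again called lower at the 2-cell stage, with 35 of the 66 F-box genes lower and 14 higher, where 67.0% of all genes were called, 35.5% higher and 31.5% lower. Fbxw24 was at 130 and 121 FPKM in SCNT 2-cell embryos and 1473 and 1588 FPKM in SCNT 1-cell embryos (log2 difference -3.60 ± 0.15, SE). The 12 genes kept 4.15% to 41.5% of their SCNT 1-cell level (median 12.5%), and their median log2 difference was -2.97, against 0.06 over all genes. With libraries scaled to equal FPKM sums, an alternative added after the data were seen, Fbxw13 was no longer called (adjusted p = 0.18).

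The decline was therefore smaller on the log scale in SCNT than in IVF embryos, and the difference between both declines was tested directly. It was positive for all 12 chromosome 9 genes and called for 9 of them, where 29.2% of all genes were called, 16.5% with a positive and 12.7% with a negative difference. Fbxw15 differed most, with a log2 difference of 1.66 ± 0.22 (SE, adjusted p = 3.4e-04), having 17.3% of its 1-cell level left in SCNT embryos and 5.22% in IVF embryos. Fbxw16 (1.38 ± 0.25, adjusted p = 0.0017), Fbxw18 (1.34 ± 0.25, adjusted p = 0.0023) and Fbxw21 (1.32 ± 0.21, adjusted p = 9.8e-04) followed. Of all 66 F-box genes, 17 had a positive and 8 a negative difference that was called, and 11 a positive one without the first or the second IVF 1-cell or the second SCNT 1-cell library. The median over the 12 was 1.04, against 0.17 over all genes, and it was 1.01 after quantile normalization and 1.28 with equal sums. Each of the 12 stayed positive under both of these scalings, with 8 and 10 called. Fbxw13, Fbxw22 and Fbxw26 were not called, and Fbxw20 (adjusted p = 0.047) lost its call in most alternatives. The same difference had a median of 0.58 over the 15 oocyte genes, of which 2 were called positive and 0 negative (limma), and 8 of the 9 tested genes of the 2-cell embryo list were called negative. Their part in the result was not tested. Both stages enter this difference: the family was lower in SCNT than in IVF embryos at the 1-cell stage and, as deposited, at or above the IVF level on average at the 2-cell stage.

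**Figure D3:**
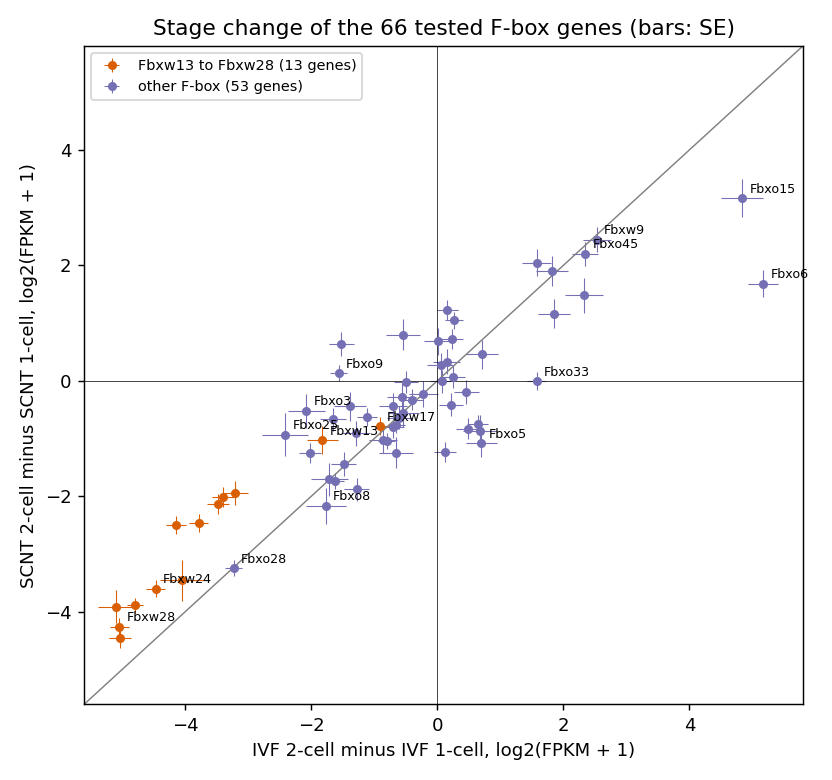
Log2 difference between the 2-cell and the 1-cell stage in SCNT embryos (vertical axis) against that in IVF embryos (horizontal axis), on the log2(FPKM + 1) scale, for 66 F-box genes, with SE bars and the line of equal change. The 12 chromosome 9 genes lie at the lower left and above the line, while Fbxo6, Fbxo15, Fbxo33 and Fbxo5 lie below it.

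Directly compared, SCNT 2-cell embryos had at least as much of the family as IVF 2-cell embryos. Of the 66 F-box genes, 17 were called higher and 12 lower, where 46.9% of all genes were called, 30.3% higher and 16.6% lower. Of the 12 on chromosome 9, 4 were called higher: Fbxw15 (27.8 and 23.3 FPKM in SCNT, 11.8 and 11.9 FPKM in IVF 2-cell embryos, log2 difference 1.04 ± 0.16, SE, adjusted p = 2.6e-04), Fbxw21 (0.84 ± 0.15, adjusted p = 8.1e-04), Fbxw16 (0.66 ± 0.17, adjusted p = 0.0088) and Fbxw24 (0.41 ± 0.15, adjusted p = 0.047). The call of Fbxw24 was lost when any 1 of the 4 libraries was left out, and 2 of the 13 were called without the second IVF or the second SCNT 2-cell library. Without the second IVF 2-cell library 10 F-box genes were called higher. The median of the 12 was 0.38 as deposited, against 0.23 over all genes. It was 0.54 after quantile normalization and 0.71 with equal sums. All 12 were positive as deposited and with equal sums, where 10 were called, and 9 of 12 after quantile normalization, where Fbxw13, Fbxw22 and Fbxw26 were slightly negative and 5 were called.

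Kdm4d overexpression left the family near its level in SCNT 2-cell embryos in the deposited values. Fbxw24 was at 122 and 133 FPKM in Kdm4d SCNT 2-cell embryos and 130 and 121 FPKM in SCNT 2-cell embryos, with overlapping libraries. Of the 66 F-box genes, 15 were called higher and 9 lower, where 39.5% of all genes were called, 21.0% higher and 18.5% lower. Of the 12 genes, 1 was called, Fbxw15, lower in Kdm4d SCNT 2-cell embryos (19.5 and 17.5 FPKM, against 27.8 and 23.3 FPKM, log2 difference -0.44 ± 0.16, SE, adjusted p = 0.042). This call was lost without the first SCNT 2-cell library (-0.32, adjusted p = 0.24), without the second Kdm4d library (-0.36, adjusted p = 0.15) and with a pseudocount of 0.1 (adjusted p = 0.054). Of the 13 genes, 0 were called without the first SCNT 2-cell library (limma, 0 also at an unadjusted p under 0.05), Fbxw13 and Fbxw15 without the first Kdm4d library, and Fbxw14 and Fbxw17 without the second. The oocyte list summed to 3471 and 2370 FPKM in Kdm4d SCNT and 1191 and 1378 FPKM in SCNT 2-cell embryos, with 4 of its 15 genes called higher and 0 lower (limma). Its median log2 difference was -0.017, against -0.022 over all genes. The direction of the 12 chromosome 9 genes depended on the scaling: 9 of 12 were positive as deposited (median 0.05), 1 after quantile normalization (median -0.23) and 0 with equal FPKM sums, where 8 were called lower (median -0.62). As a share of all F-box FPKM, the family held 22.5% ± 3.48 in Kdm4d SCNT 2-cell embryos and 37.5% ± 1.46 in SCNT 2-cell embryos (SD, n = 2 each), while the other F-box genes summed to 978 and 1266 FPKM in Kdm4d SCNT 2-cell embryos and 535 and 501 FPKM in SCNT 2-cell embryos.

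With mutant Kdm4d the family was higher than in SCNT 2-cell embryos. All 12 had positive log2 differences and 7 were called higher, among 17 of 66 F-box genes called higher and 3 lower, where 17.7% of all genes were called, 11.3% higher and 6.41% lower. Without the first or the second SCNT 2-cell library, 3 or 4 of the 12 and 6 or 9 of all F-box genes were called higher. Without the second SCNT 2-cell library 1 F-box gene was called lower, and without the second mutant library 11 of the 12 were called and 6 F-box genes were lower. Fbxw14 was at 37.9 and 37.0 FPKM in mutant Kdm4d SCNT 2-cell embryos and 18.7 and 18.2 FPKM in SCNT 2-cell embryos (log2 difference 0.98 ± 0.13, SE, adjusted p = 0.0014). Fbxw21 (0.99 ± 0.15, adjusted p = 0.0022) and Fbxw18 (0.89 ± 0.18, adjusted p = 0.0072) were alike in size. Fbxw24, at 231 and 174 FPKM in mutant Kdm4d and 130 and 121 FPKM in SCNT 2-cell embryos (0.67 ± 0.15, adjusted p = 0.014), had a difference of 0.16 (adjusted p = 0.41) after quantile normalization. The median of the 12 was 0.75, against 0.01 over all genes, and 0.31 with equal sums, where 11 of 12 were positive, Fbxw16 negative and 3 called. In this group the oocyte list was also high, summing to 5846 and 2849 FPKM there and 1191 and 1378 FPKM in SCNT 2-cell embryos, with 5 of its 15 genes called higher and 0 lower (limma), and the first mutant library carried more of both. The sum of the oocyte list was high in Kdm4d SCNT embryos too, where the family lay near its SCNT level in the deposited values. Gene by gene, however, the median log2 difference of that list from SCNT 2-cell embryos was -0.017 with Kdm4d and 0.295 with mutant Kdm4d. The part of oocyte messages in either comparison was not tested.
Kdm4d against mutant Kdm4d embryos gave negative log2 differences for all 12 under all 3 scalings, with a median of -0.67 as deposited, against -0.09 over all genes. Of the 12, 8 were called lower and 0 higher, among 12 F-box genes called higher and 18 lower, where 43.9% of all genes were called, 21.4% higher and 22.5% lower. Fbxw15 was at 19.5 and 17.5 FPKM in Kdm4d and 40.7 and 31.3 FPKM in mutant Kdm4d SCNT 2-cell embryos (-0.92 ± 0.16, SE, adjusted p = 8.1e-04). Fbxw17 went the other way, with 0.778 and 0.420 FPKM in Kdm4d and 0.0252 and 0 FPKM in mutant Kdm4d embryos. When only the compared groups entered the fit, 0 of the 66 F-box genes were called between Kdm4d and mutant Kdm4d embryos (limma, with 11 higher and 11 lower at an unadjusted p under 0.05) or between mutant Kdm4d and SCNT 2-cell embryos (15 higher and 4 lower). The 3 comparisons of 2-cell SCNT groups share libraries and are not independent of each other.

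**Figure D4:**
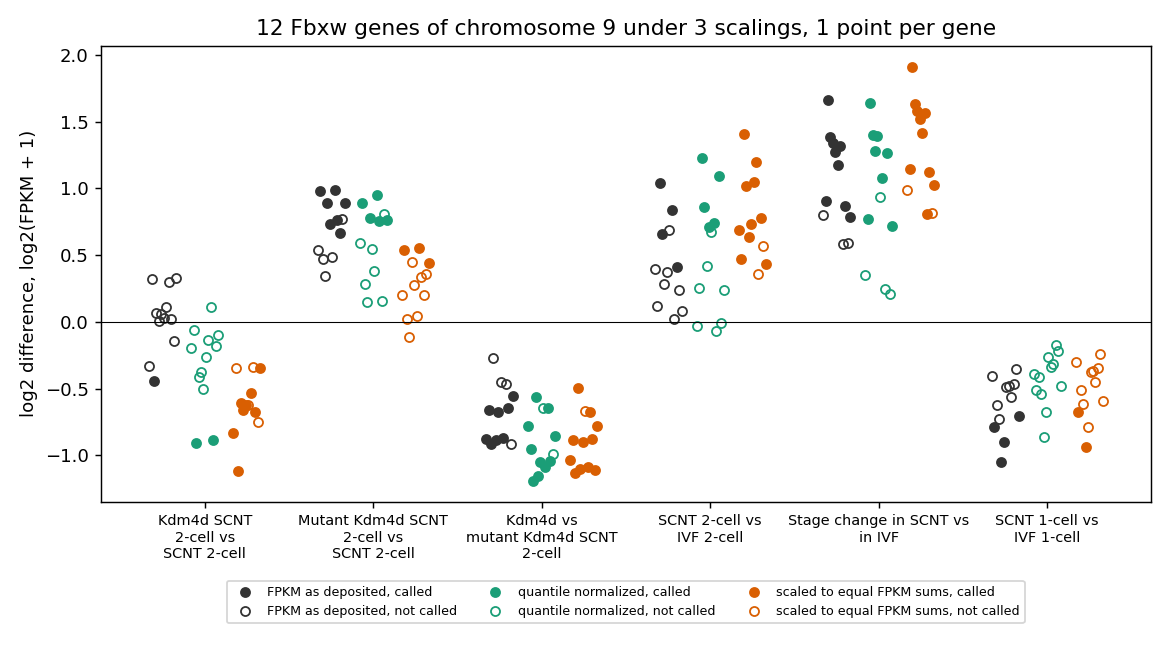
Log2 differences of the 12 chromosome 9 genes in 6 comparisons, 1 point per gene, with values as deposited, quantile normalized or scaled to equal FPKM sums, and filled points for adjusted p under 0.05. Kdm4d SCNT against SCNT 2-cell embryos changes direction with the scaling (9, 1 and 0 of 12 positive), whereas Kdm4d against mutant Kdm4d stays negative and the stage change of SCNT against IVF stays positive in all 12.

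The other 62 F-box genes were mostly scarce. In IVF 1-cell embryos 21 of them averaged under 1 FPKM, 25 between 1 and 10, 13 between 10 and 50 and 3 at 50 or more. Those under 1 FPKM numbered 19 to 29 over the 7 groups. Their sum was 978 and 1266 FPKM in Kdm4d SCNT, 700 and 716 in mutant Kdm4d SCNT, 535 and 501 in SCNT and 934 and 896 in IVF 2-cell embryos, 664 and 669 in SCNT 1-cell embryos, 317 and 322 in donor cells and 688 and 714 in IVF 1-cell embryos. At the 2-cell stage Kdm4d SCNT embryos were thus on the side of IVF embryos, and both mutant Kdm4d and plain SCNT embryos were lower.

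Much of that sum was Fbxo15, a gene long used as a marker of embryonic stem cells. It was at 273 and 551 FPKM in Kdm4d SCNT, 71.4 and 149 in mutant Kdm4d SCNT, 144 and 114 in SCNT and 343 and 316 in IVF 2-cell embryos, 14 and 12.8 in SCNT 1-cell embryos, 0.315 and 0.318 in donor cells and 11.5 and 9.75 in IVF 1-cell embryos. Every 2-cell library lay above every 1-cell library, and SCNT 2-cell libraries lay below IVF 2-cell libraries. The rise with stage was called in SCNT embryos (log2 difference 3.17 ± 0.33, SE, adjusted p = 6.0e-06) and in IVF embryos (4.83 ± 0.33, adjusted p = 1.2e-07), and the level was lower in SCNT than in IVF 2-cell embryos (-1.35 ± 0.33, adjusted p = 0.0059), a call lost after quantile normalization (adjusted p = 0.051). Between Kdm4d and mutant Kdm4d embryos it differed by 1.90 ± 0.33 (adjusted p = 9.4e-04).

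Fbxo6, the glycoprotein receptor named above, was high in Kdm4d SCNT and IVF 2-cell embryos and low in both other groups of 2-cell embryos, with no overlap between high and low. It was at 30.2 and 36.7 FPKM in Kdm4d SCNT, 2.18 and 4.23 in mutant Kdm4d SCNT, 3.36 and 3.24 in SCNT and 37.8 and 32.4 in IVF 2-cell embryos, 0.147 and 0.558 in SCNT 1-cell embryos, and listed at 0 in IVF 1-cell embryos. It was lower in SCNT than in IVF 2-cell embryos (log2 difference -3.06 ± 0.24, SE, adjusted p = 2.6e-06), higher in Kdm4d than in plain SCNT embryos (3.0 ± 0.24, adjusted p = 8.0e-06) and higher in Kdm4d than in mutant Kdm4d embryos (3.07 ± 0.24, adjusted p = 1.1e-05). Its level in SCNT 2-cell embryos was low although the donor cells held 40.5 and 34.6 FPKM. Fbxo33, which in human cells binds the Y-box protein YB-1, was likewise high in Kdm4d SCNT and IVF 2-cell embryos and low in the other two: 76.1 and 99.1 FPKM in Kdm4d SCNT, 29.4 and 27.6 in mutant Kdm4d SCNT, 28.8 and 24.7 in SCNT and 117 and 118 in IVF 2-cell embryos. Its log2 difference was -2.10 ± 0.15 between SCNT and IVF 2-cell embryos (adjusted p = 1.9e-06) and 1.67 ± 0.15 between Kdm4d and plain SCNT embryos (adjusted p = 1.8e-05).
The cell cycle regulator Fbxo5 was at 90.5 and 60.3 FPKM in Kdm4d SCNT, 33.6 and 41.3 in mutant Kdm4d SCNT, 17.2 and 19.6 in SCNT and 49.3 and 47.6 in IVF 2-cell embryos. Here mutant Kdm4d embryos also lay above plain SCNT embryos, which were the lowest of the 2-cell groups. Its log2 difference was -1.35 ± 0.24 between SCNT and IVF (adjusted p = 8.4e-04) and 1.95 ± 0.24 between Kdm4d and plain SCNT 2-cell embryos (adjusted p = 1.1e-04). Beside these genes, the 9 tested genes of the 2-cell embryo list, chosen with earlier results of these data known, moved alike. Of them, 8 were called lower in SCNT than in IVF 2-cell embryos, against 16.6% of all genes. In Kdm4d than in plain SCNT 2-cell embryos 9 were called higher, against 21.0% of all genes. The part of that list in the F-box differences was not tested.

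**Figure D5:**
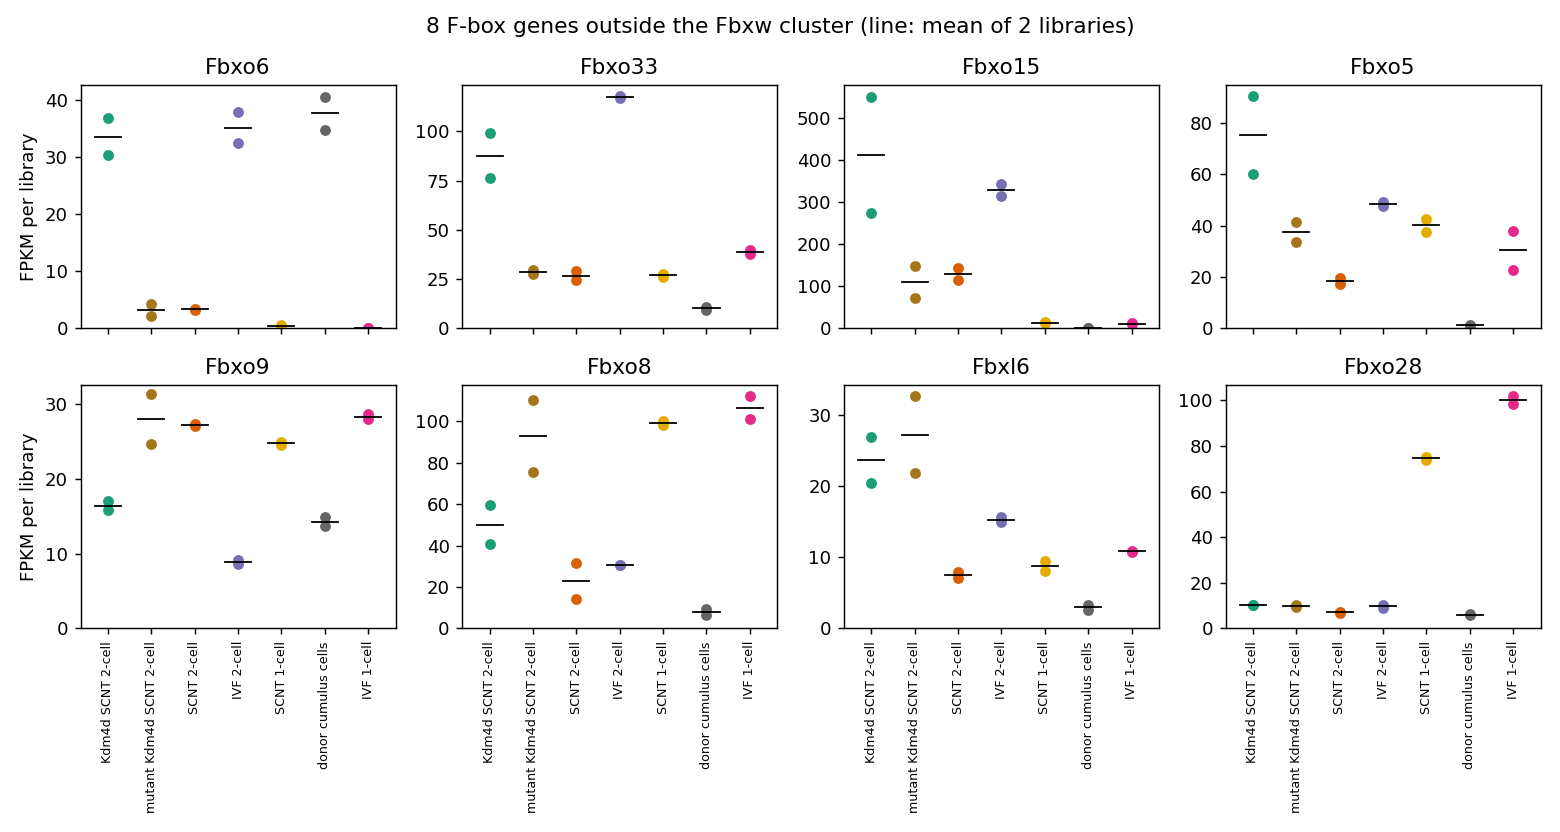
FPKM per library of 8 F-box genes outside the Fbxw family in the 7 groups, 1 point per library, with a line at the mean of 2 libraries, on a linear axis from 0. Fbxo6, Fbxo33, Fbxo15 and Fbxo5 are high in Kdm4d SCNT and IVF 2-cell embryos, Fbxo9 is lowest in IVF 2-cell embryos, and Fbxo8 and Fbxl6 are highest among 2-cell embryos in the mutant Kdm4d group on average.

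Other genes took the opposite course. Fbxo9, which in human cells targets the Tel2 and Tti1 proteins, was at 15.8 and 17 FPKM in Kdm4d SCNT, 31.3 and 24.6 in mutant Kdm4d SCNT, 27 and 27.4 in SCNT and 8.65 and 9.15 in IVF 2-cell embryos, against 24.9 and 24.5 in SCNT 1-cell and 27.9 and 28.7 in IVF 1-cell embryos. In SCNT embryos its 2-cell values lay near its 1-cell values, in IVF embryos well below them, and the difference between both stage changes was 1.70 ± 0.20 on the log2 scale (SE, adjusted p = 1.7e-04). It was higher in SCNT than in IVF 2-cell embryos (1.51 ± 0.14, adjusted p = 9.6e-06) and lower in Kdm4d than in plain SCNT embryos (-0.70 ± 0.14, adjusted p = 0.0023). Fbxo28, which modifies Myc in human cells, fell in both kinds, with 6.61 and 7.41 FPKM in SCNT 2-cell against 75.2 and 74.0 FPKM in SCNT 1-cell embryos, and 9.11 and 10.5 FPKM in IVF 2-cell against 98.4 and 102 FPKM in IVF 1-cell embryos. Its log2 differences were -3.24 ± 0.13 in SCNT and -3.23 ± 0.13 in IVF embryos (SE), and the difference between them was not called (-0.01 ± 0.19, SE).
Fbxw9 and Fbxo45, a partner of the ubiquitin ligase Mycbp2 in neurons, rose at the 2-cell stage in both kinds of embryo. Fbxw9 averaged 7.01 ± 0.356 FPKM in SCNT 2-cell against 0.473 ± 0.159 FPKM in SCNT 1-cell embryos, and 6.49 ± 0.700 FPKM in IVF 2-cell against 0.302 ± 0.188 FPKM in IVF 1-cell embryos (SD, n = 2 each). Mutant Kdm4d embryos stood apart in Fbxo8, at 111 and 75.6 FPKM there and 14.4 and 31.6 FPKM in SCNT 2-cell embryos (log2 difference 2.04 ± 0.31, SE, adjusted p = 0.0024), and in Fbxl6, at 32.7 and 21.8 FPKM there and 7.08 and 7.92 FPKM in SCNT 2-cell embryos (1.71 ± 0.20, adjusted p = 0.0011). Kdm4d embryos were also above plain SCNT embryos in both genes. Fbxl5, the iron sensor that controls iron regulatory proteins, was at 33.8 and 25.7 FPKM in Kdm4d SCNT, 30.7 and 23.7 in mutant Kdm4d SCNT and 11.2 and 13.6 in plain SCNT 2-cell embryos. It was called higher in both, by a log2 difference of 1.07 ± 0.20 with mutant Kdm4d (SE, adjusted p = 0.0053). Fbxo22, known in human cells to target the demethylase KDM4A, was lower in Kdm4d than in mutant Kdm4d embryos (-0.94 ± 0.19, adjusted p = 0.0024), with means of 2.71 FPKM in Kdm4d and 6.12 FPKM in mutant Kdm4d embryos. The calls that involve the mutant group were lost when only the compared groups were fitted.

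The core of the SCF ligase was itself abundant in 1-cell embryos. Skp1a, the adaptor, was at 1779 and 1706 FPKM in SCNT 1-cell, 252 and 223 FPKM in donor cells and 1909 and 1882 FPKM in IVF 1-cell embryos, and Cul1, the scaffold, at 476 and 483 FPKM in SCNT 1-cell, 22.1 and 21.1 FPKM in donor cells and 573 and 597 FPKM in IVF 1-cell embryos. Both fell at the 2-cell stage, Skp1a to 343 and 419 FPKM in SCNT and 306 and 337 FPKM in IVF 2-cell embryos, and Cul1 to 152 and 200 FPKM in SCNT and 191 and 220 FPKM in IVF 2-cell embryos. Their falls in SCNT and in IVF embryos were not called different (log2 difference 0.36 ± 0.40 for Skp1a and 0.05 ± 0.29 for Cul1, SE), while Rbx1 fell further in SCNT embryos (-1.15 ± 0.22, adjusted p = 0.0026). Rbx1 was at 76.3 and 78.5 FPKM in Kdm4d SCNT, 63.2 and 46.6 in mutant Kdm4d SCNT, 30.9 and 26.1 in SCNT and 66.5 and 66.9 in IVF 2-cell embryos.
Of the 37 genes of the SCF and its Nedd8 cycle, 10 were called higher (27%) and 16 lower (43.2%) in SCNT 2-cell than in SCNT 1-cell embryos, against 35.5% and 31.5% of all genes, and 7 higher (18.9%) and 17 lower (45.9%) in IVF 2-cell than in IVF 1-cell embryos, against 30.4% and 37.2%. Between SCNT and IVF 2-cell embryos 9 were higher (24.3%) and 11 lower (29.7%), against 30.3% and 16.6% of all genes. Cops6, a subunit of the COP9 signalosome that removes Nedd8 from cullins, was at 82.9 and 134 FPKM in Kdm4d SCNT, 7.95 and 30.2 in mutant Kdm4d SCNT, 20.2 and 17.3 in SCNT and 96.2 and 71.0 in IVF 2-cell embryos, while Rnf7, a relative of Rbx1, was at 36.5 and 60.0 FPKM in Kdm4d SCNT, 15.5 and 16.3 in mutant Kdm4d SCNT, 15.6 and 12.4 in SCNT and 47.5 and 52.2 in IVF 2-cell embryos. Both were high in Kdm4d SCNT and IVF embryos. Glmn, a binder of Rbx1, was higher in SCNT than in IVF 2-cell embryos (log2 difference 1.11 ± 0.15, SE, adjusted p = 1.1e-04), as was Ube2d1, a ubiquitin-conjugating enzyme (2.15 ± 0.30, adjusted p = 1.5e-04). Against plain SCNT 2-cell embryos, 13 of the 37 were called higher (35.1%) and 5 lower (13.5%) with Kdm4d, against 21.0% and 18.5% of all genes, and 13 higher (35.1%) and 2 lower (5.41%) with mutant Kdm4d, against 11.3% and 6.41%. In mutant Kdm4d embryos Skp1a (1.26 ± 0.28, adjusted p = 0.012) and Cks1b, a cofactor of the F-box protein Skp2 (1.56 ± 0.31, adjusted p = 0.0077), were among the higher ones. Skp1a was at 1237 and 670 FPKM there and 343 and 419 FPKM in SCNT 2-cell embryos. Cks1b was at 798 and 325 FPKM with mutant Kdm4d and 170 and 174 FPKM in SCNT 2-cell embryos. Calls of single SCF genes were not checked under the alternatives. Of the 5 tested F-box genes with other names, 3 were called lower and 0 higher in SCNT than in IVF 2-cell embryos, against 16.6% and 30.3% of all genes. Those lower were Ccnf, Kdm2b and Skp2, while Btrc and Kdm2a were not called.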

How the data were processed

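RNA-seq libraries of 14 samples in 7 groups of 2 were analysed from the table of FPKM that the authors deposited, 1 value per gene and library. Per the labels' protocols, cDNA came from the SMARTer Ultra Low Input kit and libraries from Covaris shearing and NEBNext Ultra, read from 1 end over 50 bases on a HiSeq 2500. Per the submitters' processing notes, Novoalign (no version given) and Cufflinks 2.0.2 were used with genome build mm9. For the annotation, the filters and reads that fit several places, nothing was found in the sources used here. These choices matter for near-identical genes such as the Fbxw family.

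The table has 23697 rows. Of these, 797 rows of short RNAs were left out and 640 rows sharing a symbol were summed, which left 22491 symbols. Each of the 75 F-box genes had a row of its own, and 1 gene that fits the name pattern is not reported here. Genes that reached 1 FPKM in 2 or more libraries, 13451 in all, entered as log2(FPKM + 1) a test with limma 3.58.1 in R 4.3.3, with an intensity trend, on 7 group means of all 14 libraries (7 residual degrees of freedom, median prior 4.72). The Benjamini-Hochberg adjustment ran over all 13451 genes within each comparison, and calls were made at 0.05. The pseudocount of 1 understates the changes of low genes. FPKM carry no read counts, so no counting intervals were given, and depth was only estimated relative to 1 library. Relative amounts cannot show a change of total RNA. Table starts count from 0, so 1 was added.

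Promoters are those of RefSeq (GRCm38.p6), transcripts those of GENCODE M21, aligned with MAFFT 7.526. Coordinates of the 2 builds were not combined. The fit was tested on simulated data. Alternatives were a pseudocount of 0.1, no filter on low values, quantile normalization, group weights, only the compared groups, a replicate block, each library left out in turn and, added after the data were seen, equal FPKM sums. The members, lists and tests were chosen with earlier results of these data known. Besides all Fbxw13 to Fbxw28 genes, the text names other F-box genes by rules of size (at most 4 per direction and comparison with a mean of at least 5 FPKM and no overlap), abundance (the 3 highest per group) or described role. SCF genes were named likewise, besides Skp1a, Cul1 and Rbx1. Fbxo48 was named after its values were seen, and so were the genes flanking the family.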

Additional observations from a re-analysis of the deposited data

Results flagged for a closer look

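For 17 named F-box genes the change between the 1-cell and the 2-cell stage differed between SCNT and IVF embryos by a direct test of that difference (limma, Benjamini-Hochberg adjusted p under 0.05, SCNT minus IVF on the log2 scale). In this test 29.2% of all genes were called, 37.9% of the 66 F-box genes and 30.2% of the 53 outside Fbxw13 to Fbxw28. The genes listed were picked because they were called here, and not every called F-box gene is listed. The difference was positive for 9 chromosome 9 genes, Fbxw15 (1.66), Fbxw16 (1.38), Fbxw18 (1.34), Fbxw21 (1.32), Fbxw19 (1.27), Fbxw20 (1.18), Fbxw14 (0.91), Fbxw24 (0.87) and Fbxw28 (0.79), which fell less in SCNT embryos. Among the others it was positive for Fbxo9 (1.70, adjusted p = 1.7e-04), Fbxo3 (1.56, adjusted p = 0.016), Fbxl7 (0.98, adjusted p = 0.025) and Fbxo30 (0.76, adjusted p = 0.035). It was negative for Fbxo6 (-3.48, a value that depends on the pseudocount because IVF 1-cell embryos were listed at 0), Fbxo5 (-1.78, adjusted p = 0.0028), Fbxo15 (-1.67, adjusted p = 0.020) and Fbxo33 (-1.58, adjusted p = 4.1e-04). Of these 4, Fbxo6 and Fbxo15 rose less in SCNT embryos, Fbxo5 rose in IVF and fell in SCNT embryos, and Fbxo33 rose in IVF embryos and was not called in SCNT embryos. Several of these calls were lost when 1 of the 8 libraries was left out, for Fbxo30 in 8 of 8 such fits, Fbxw20 in 7, Fbxl7 and Fbxo15 in 6, Fbxo3 and Fbxw28 in 4 and Fbxw24 in 2. After quantile normalization the calls of Fbxo30 (0.27, adjusted p = 0.51), Fbxl7 (0.69, adjusted p = 0.12), Fbxw20 (0.93, adjusted p = 0.15), Fbxo3 (1.18, adjusted p = 0.074) and Fbxo15 (-1.19, adjusted p = 0.097) were lost, and with a pseudocount of 0.1 those of Fbxo30 and Fbxw20. Fbxo15 also lost its call with no filter and with equal FPKM sums, and Fbxw20 with no filter and with the replicate block. Both stages enter each value, since 2 contrasts are subtracted.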

How the results depend on the processing

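The falls of the 12 chromosome 9 genes between stages and their difference between SCNT and IVF embryos kept their direction in all alternatives run. For SCNT against IVF 1-cell embryos (2 F-box genes higher, 5 lower, 4 of the 13 Fbxw genes called), a pseudocount of 0.1 gave 4 higher, no filter 1 higher, quantile normalization 1 higher, 0 lower and 0 Fbxw (limma, 10 and 6 at an unadjusted p under 0.05), equal sums 1 higher, 2 lower and 2 Fbxw, group weights 12 higher, 20 lower and 11 Fbxw, and only the compared groups 17 lower and 11 Fbxw. The replicate block gave 1 higher, 3 lower and 2 Fbxw there and moved no other count by over 1.5 times. Deviations of same-numbered libraries correlated at -0.249 to 0.302 over 21 pairs of groups (median -0.02), with 2 over 0.1 and 6 under -0.1. Whether libraries of different groups shared a batch was not tested. For Kdm4d SCNT against SCNT 2-cell embryos (15 higher, 9 lower, 1 Fbxw), no filter gave 2 Fbxw, quantile normalization 3, group weights 0 (1 at an unadjusted p under 0.05), only the compared groups 9 higher, 3 lower and 0 Fbxw (0 unadjusted), and equal sums 8 higher, 26 lower and 8 Fbxw. For mutant Kdm4d SCNT against SCNT 2-cell embryos (17, 3 and 7), group weights gave 6 higher, 1 lower and 3 Fbxw, equal sums 8, 9 and 3, and only the compared groups 0 of each (15, 4 and 7 at an unadjusted p under 0.05). For Kdm4d against mutant Kdm4d embryos (12, 18 and 9), group weights gave 7, 5 and 2 and only the compared groups 0 of each (11, 11 and 5 unadjusted). Equal sums gave 22 lower between SCNT stages (35) and, between SCNT and IVF 2-cell embryos, 27 higher (17) and 10 Fbxw (4). Group weights gave 13 negative differences between stage changes (8). The cause of these shifts was not tested.

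Leaving out 1 library at a time gave 11 to 14 positive differences between stage changes (17), 10 to 15 higher and 2 to 4 Fbxw between SCNT and IVF 2-cell embryos, 0 to 2 Fbxw between Kdm4d SCNT and SCNT 2-cell embryos, 6 to 24 higher, 1 to 6 lower and 3 to 11 Fbxw between mutant Kdm4d SCNT and SCNT 2-cell embryos, and 0 to 0 of each between SCNT and IVF 1-cell embryos. A group left with 1 library was assumed to vary like the others.

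Signs changed only for values not called as deposited, among the genes and alternatives run. Quantile normalization gave -0.10 for Fbxw17 (SCNT against IVF 1-cell), -0.034, -0.069 and -0.010 for Fbxw13, Fbxw22 and Fbxw26 (SCNT against IVF 2-cell) and, for Kdm4d SCNT against SCNT 2-cell embryos, -0.062 (Fbxw14), -0.41 (Fbxw16), -0.38 (Fbxw18), -0.50 (Fbxw19), -0.26 (Fbxw20), -0.14 (Fbxw21), -0.88 (Fbxw24, adjusted p = 2.5e-04) and -0.10 (Fbxw28). Equal sums gave there -0.35 (Fbxw14), -0.61 (Fbxw16), -0.66 (Fbxw18), -0.62 (Fbxw19 and Fbxw20), -0.53 (Fbxw21), -0.34 (Fbxw22 and Fbxw28) and -0.67 (Fbxw24), and -0.11 for Fbxw16 in mutant Kdm4d SCNT against SCNT 2-cell embryos. With 1 library left out, the range in Kdm4d SCNT against SCNT 2-cell embryos was -0.69 to 0.023 for Fbxw13, -0.10 to 0.23 for Fbxw16, -0.24 to 0.26 for Fbxw18, -0.066 to 0.18 for Fbxw19, -0.25 to 0.31 for Fbxw20, -0.038 to 0.083 for Fbxw24 and -0.54 to 0.25 for Fbxw26. It was -0.039 to 0.21 for Fbxw17 in SCNT against IVF 1-cell embryos, -0.095 to 0.14 for Fbxw22 and -0.067 to 0.55 for Fbxw26 in SCNT against IVF 2-cell embryos, and -0.91 to 0.0068 for Fbxw20 in Kdm4d against mutant Kdm4d embryos.

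Depth limits low genes such as Fbxw13 and Fbxw17, and 2 libraries a group limit every call. FPKM are relative, so a change of total RNA between stages would move all genes, and likeness between the Fbxw transcripts limits their separate values.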
